A study of Caenorhabditis elegans with 2 samples.

Results

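The nuclear genome of Caenorhabditis elegans carries 612 annotated tRNA genes among 46890 nuclear genes, and 78 of them had a peak summit of eGFP-tagged CEH-28 within 500 bp (12.7%, 95% Wilson interval 10.3% to 15.6%). The genes were taken as all those of the tRNA class on the chromosomes I to V and X in the Ensembl release 115 annotation of WBcel235, the same assembly as ce11, and none was chosen by its signal. Over all nuclear genes, most of them longer than a tRNA gene, the same rule gave 8.42%. Without the 15363 piRNA genes, of which 1.12% had a summit, it gave 12.0% (interval 11.6% to 12.3%), which lies inside the interval of the tRNA genes. Over genome tiles of 1072 bp, the median size of a tRNA gene with 500 bp on either side, it gave 3.55%. The peaks come from chromatin immunoprecipitation and sequencing of whole L3 larvae of strain OP241, recorded as males and females pooled, in 2 biological replicates. Both replicates carried the unc-119(ed3) mutation on chromosome III and wgIs241, an integrated transgene with the tagged ceh-28. There was 1 group and no comparison group, so all comparisons are between genes or summits within these lists, given as shares with counting intervals and without a test. In whole larvae the cells in which a site was bound cannot be told apart.

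The NK-2 class homeodomain protein CEH-28 is known for its role in M4, a motor neuron of the pharynx. tRNA genes are short genes transcribed by RNA polymerase III, whose general factor TFIIIC binds the A box and the B box inside the gene and places TFIIIB just upstream of its start. Worm tRNA genes exist in many identical copies, scattered singly or in small groups over all chromosomes, with the X chromosome holding more than any other. The annotated genes were 64 to 122 bp long, with a median of 72 bp. All 612 matched a RefSeq tRNA gene by position, and RefSeq gave the amino acid for all but 5.

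The gaps between the genes of 4 divergent pairs on X are shown first, because in each of them the summit lay between the genes. Sequences are from the RefSeq copy of the assembly and run 5′ to 3′ on the plus strand of ce11, from the base after the left gene to the base before the right gene. Capitals mark 5 short stretches of letters on either strand, which are AGAGAAG and also CTGCGTC, then GCGCAGGG, and AATCGAT with its variant AATCAAT.
C53C7.t2 to C53C7.t1 (chrX:13046448-13046577, plus strand): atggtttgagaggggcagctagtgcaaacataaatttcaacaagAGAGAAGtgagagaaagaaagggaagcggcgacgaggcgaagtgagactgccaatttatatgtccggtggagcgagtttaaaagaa
M02F4.t2 to M02F4.t1 (chrX:3036048-3036163, plus strand): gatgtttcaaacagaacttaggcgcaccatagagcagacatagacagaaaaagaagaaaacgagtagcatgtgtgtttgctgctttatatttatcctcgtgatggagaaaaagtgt
F46G11.t2 to F46G11.t1 (chrX:5801283-5801471, plus strand): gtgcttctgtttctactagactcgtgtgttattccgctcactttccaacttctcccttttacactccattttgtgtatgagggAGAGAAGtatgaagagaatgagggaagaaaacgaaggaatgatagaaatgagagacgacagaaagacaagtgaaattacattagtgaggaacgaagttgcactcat
R03E1.t2 to R03E1.t1 (chrX:14162098-14162214, plus strand): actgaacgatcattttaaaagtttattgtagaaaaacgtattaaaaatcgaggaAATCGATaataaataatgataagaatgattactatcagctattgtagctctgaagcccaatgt
The summits fell on bases 70, 69, 77 and 46 of these gaps, in the order shown, and the gaps were 130, 116, 189 and 117 bp long.

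The 120 bases upstream of 6 isolated X genes follow, written along the strand of the gene up to the base before it, because these are the strongest isolated X genes whose summit lay in the first 100 bp upstream. A gene counts as isolated where no other nuclear tRNA gene lies within 1000 bp. Capitals have the same meaning as above.
C33G3.t2 (chrX:14064019-14064138, minus strand): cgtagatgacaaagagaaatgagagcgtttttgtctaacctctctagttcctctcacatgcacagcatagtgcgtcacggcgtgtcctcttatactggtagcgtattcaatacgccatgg
W02H3.t1 (chrX:11095553-11095672, plus strand): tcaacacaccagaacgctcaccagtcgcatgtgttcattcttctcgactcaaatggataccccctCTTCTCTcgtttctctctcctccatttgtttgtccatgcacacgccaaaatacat
Y59E1B.t2 (chrX:1880889-1881008, minus strand): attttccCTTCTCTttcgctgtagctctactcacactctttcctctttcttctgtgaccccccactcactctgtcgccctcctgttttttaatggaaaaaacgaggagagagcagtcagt
C40H5.t1 (chrX:11757915-11758034, minus strand): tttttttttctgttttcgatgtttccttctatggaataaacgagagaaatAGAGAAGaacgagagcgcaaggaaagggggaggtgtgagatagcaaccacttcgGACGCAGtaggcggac
W03G11.t1 (chrX:12106220-12106339, minus strand): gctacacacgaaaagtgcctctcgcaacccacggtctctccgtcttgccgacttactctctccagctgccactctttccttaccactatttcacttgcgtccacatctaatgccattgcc
F52H2.t1 (chrX:2553445-2553564, plus strand): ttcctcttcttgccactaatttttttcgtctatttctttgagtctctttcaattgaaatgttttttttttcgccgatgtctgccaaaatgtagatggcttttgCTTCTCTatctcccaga
AGAGAAG, on 1 strand or the other, stood in 4 of these 6 stretches, and C40H5.t1 had CTGCGTC on the other strand as well. AGAGAAG was picked by a scan upstream of the X genes with a summit, these 6 among them, so its count here is a description. It stood in 3.62% of all 200 bp windows of X, which are longer than these stretches.

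Both strongest loci, 1 on X and 1 on an autosome, held AATCGAT, which stood within 50 bp of 35.7% of the thresholded summits away from tRNA genes. The first sequence is centred on the summit, and the second is the 120 bases upstream of the gene along its strand.
C18A11.t2 summit (chrX:8036385-8036485, plus strand): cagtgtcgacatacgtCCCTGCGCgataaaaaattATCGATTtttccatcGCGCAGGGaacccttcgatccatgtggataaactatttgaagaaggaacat
Y69A2AR.t2 (chrIV:2639881-2640000, minus strand): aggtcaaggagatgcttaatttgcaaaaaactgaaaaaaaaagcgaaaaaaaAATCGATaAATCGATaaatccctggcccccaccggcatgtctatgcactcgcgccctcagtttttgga
The C18A11.t2 summit had 2 copies of GCGCAGGG, 1 on each strand, on either side of 1 AATCGAT. Y69A2AR.t2 had 2 copies of AATCGAT next to each other.

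Identical gene copies are shown last, because copies of 1 sequence differed in whether they had a summit. The capitals here mark exact matches to the B box, taken as GTTCGANTC. The Gln sequence has no exact match and so no capitals, but it holds gttcaaatc, which differs by 1 mismatch.
R04A9.t1, a Gln gene (chrX:410391-410462, plus strand): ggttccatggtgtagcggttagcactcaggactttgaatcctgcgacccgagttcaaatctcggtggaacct
T07H6.t2, an Ala gene (chrX:6292278-6292349, minus strand): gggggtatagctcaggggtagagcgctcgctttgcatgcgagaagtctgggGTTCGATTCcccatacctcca
C06G1.t1, a His gene (chrX:16634830-16634901, minus strand): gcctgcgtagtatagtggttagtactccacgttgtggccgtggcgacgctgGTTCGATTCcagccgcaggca
The Gln sequence occurred in 15 genes, of which 1 had a summit. The Ala sequence occurred in 8 genes, of which 2 had a summit, T07H6.t2 on X and Y38E10A.t1 on II. The His sequence occurred in 11 genes, of which 1 had a summit.

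The tRNA genes with a summit lay mostly on the X chromosome. On X 57 of 276 had one (20.7%, interval 16.3% to 25.8%), and on the autosomes 21 of 336 (6.25%, interval 4.12% to 9.37%). X carried 45.1% of the tRNA genes and 73.1% of those with a summit. X tiles were not richer in summits, with 3.22% against 3.63% of autosomal tiles. Among the autosomes the share was 7 of 57 genes on II (12.3%, interval 6.08% to 23.2%) against 3.18% of tiles there, and 5 of 66 on I (7.58%) against 4.74%. It was 4 of 78 on V (5.13%) against 2.46%, 3 of 71 on IV (4.23%) against 3.30%, and 2 of 64 on III (3.12%) against 5.08%. The intervals of the 5 autosomes overlapped each other, and those of I and II also overlapped that of X.

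**Figure D1:**
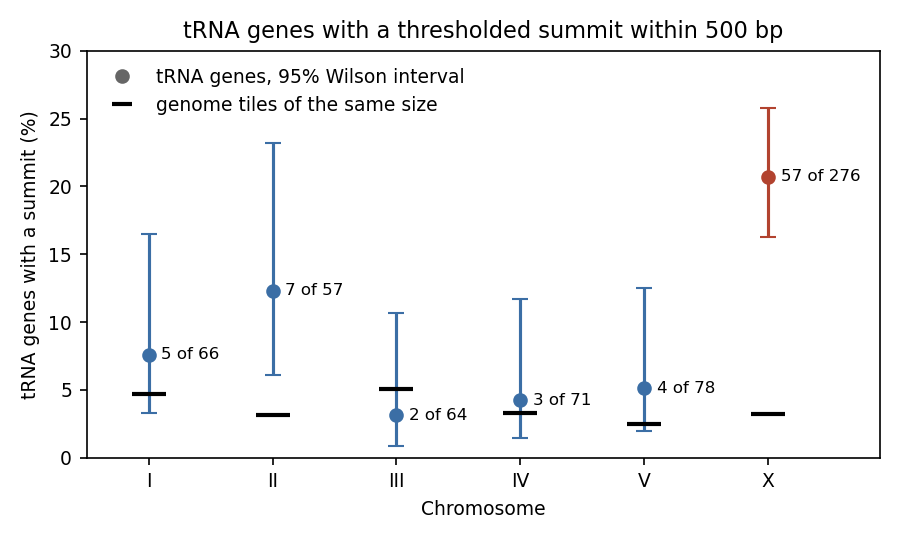
Share of tRNA genes with a thresholded summit within 500 bp, in percent, for each chromosome. Points are shares with 95% Wilson intervals, labelled with the number of genes, and black bars are the share of genome tiles of 1072 bp with a summit. X stands at 20.7% against 3.22% of its tiles, and the autosomes stand between 3.12% and 12.3%.

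Over all chromosomes the tRNA genes stood among the other classes. Each window is the whole gene with 500 bp on either side, so longer genes, such as most protein-coding ones, have wider windows. Shares of different classes are therefore not like for like. The share was lower for miRNA genes (10.7%), ncRNA (621 of 7764), antisense RNA (6 of 100), pseudogenes (2.58%) and piRNA (1.12%), and 0 of 20 rRNA genes had a summit. It was 14.4% for protein-coding genes, 12.9% for lincRNA, 15.3% for small nucleolar RNA and 17.8% for small nuclear RNA genes. Of every class but piRNA, 10.2% had a summit on X and 12.4% on the autosomes, and most classes did not have a higher share on X. Protein-coding genes had a summit in 13.0% on X (354 of 2731) and 14.7% on the autosomes (2531 of 17242). Genes for miRNAs had one in 6 of 74 on X (8.11%) and 22 of 187 on the autosomes (11.8%). Small nucleolar RNA genes, which guide RNA modification and lie mostly in introns, had one in 1 of 33 on X (3.03%, interval 0.537% to 15.3%) and 52 of 313 on the autosomes (16.6%, interval 12.9% to 21.1%). Only 3 small nuclear RNA genes lay on X, and 1 of them had a summit, against 22 of 126 on the autosomes (17.5%). X exceeded the autosomes also among piRNA genes, at 5 of 162 (3.09%, interval 1.33% to 7.02%) against 167 of 15201 (1.10%, interval 0.945% to 1.28%).

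The 78 genes shared 65 summits, 46 on X and 19 on the autosomes, which are 1.84% of the 3531 thresholded summits. Of these summits 52 served 1 tRNA gene, 12 served 2, and 1 served the 5 genes of the K01A12 group. C28G1.t1, F41D9.t3 and Y38E10A.t1 each had 2 summits. Counts over genes therefore include genes that share a peak.

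By place, 53 of 319 tRNA genes between protein-coding genes had a summit (16.6%), 23 of 283 in introns (8.13%), and 2 of 10 that overlapped an exon. On X the genes in introns had one in 17.9% (17 of 95) and those between genes in 21.7% (39 of 180), and the intervals overlapped. On the autosomes the shares were 3.19% (6 of 188) in introns and 10.1% (14 of 139) between genes, with intervals of 1.47% to 6.79% and 6.09% to 16.2%. Intronic tRNA genes with a summit included F52H2.t1 in aat-3, an amino acid transporter gene, F38G1.t2 in egl-17, a fibroblast growth factor gene, and T06H11.t2 in unc-58, a potassium channel gene.

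On X the share was much the same with and without a nearby protein-coding 5′ end. X tRNA genes with no protein-coding 5′ end within 1000 bp had a summit in 20.4% (40 of 196), and those with one in 21.2% (17 of 80). Of the 65 summits near tRNA genes, 17 (26.2%, interval 17.0% to 38.0%) lay in a protein-coding promoter window, from 1000 bp upstream to 200 bp downstream of a 5′ end. For all other thresholded summits it was 53.3%. On X it was 10 of 46 (21.7%) against 52.2%, and on the autosomes 7 of 19 (36.8%, interval 19.1% to 59.0%) against 53.5%. In the outer 25% at the ends of X 22 of 125 tRNA genes had a summit (17.6%), and in the central 50% 35 of 151 (23.2%), with overlapping intervals.

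On X, summits lay close in front of the genes. Each gene was given its strongest summit, measured from the 5′ end of the gene along its strand, with negative values upstream. The median over the 57 X genes was -28 bp, with quartiles of -70 and 43 bp. Of them 36 had the summit upstream, 9 inside the gene and 12 downstream, and in 27 it lay in the first 100 bp upstream (47.4%, interval 35.0% to 60.1%), which is 9.33% of the window. On the autosomes 11 of 21 summits were upstream, 2 inside and 8 downstream. There 4 lay in the first 100 bp upstream (19.0%, interval 7.67% to 40.0%), and the median was -53 bp. The intervals for the first 100 bp overlapped between X and autosomes. Inside genes with a summit, the median share of stretches of 36 bp found once in the genome was 0%. Positions in the window may thus not be equally callable, and the part of this in the summit positions was not tested. Of the 65 summits, 54 are centres of intervals of 400 bp, so the position carries the resolution of the peak caller, and per the labels the fragments sequenced ran from 150 to 350 bp.

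**Figure D2:**
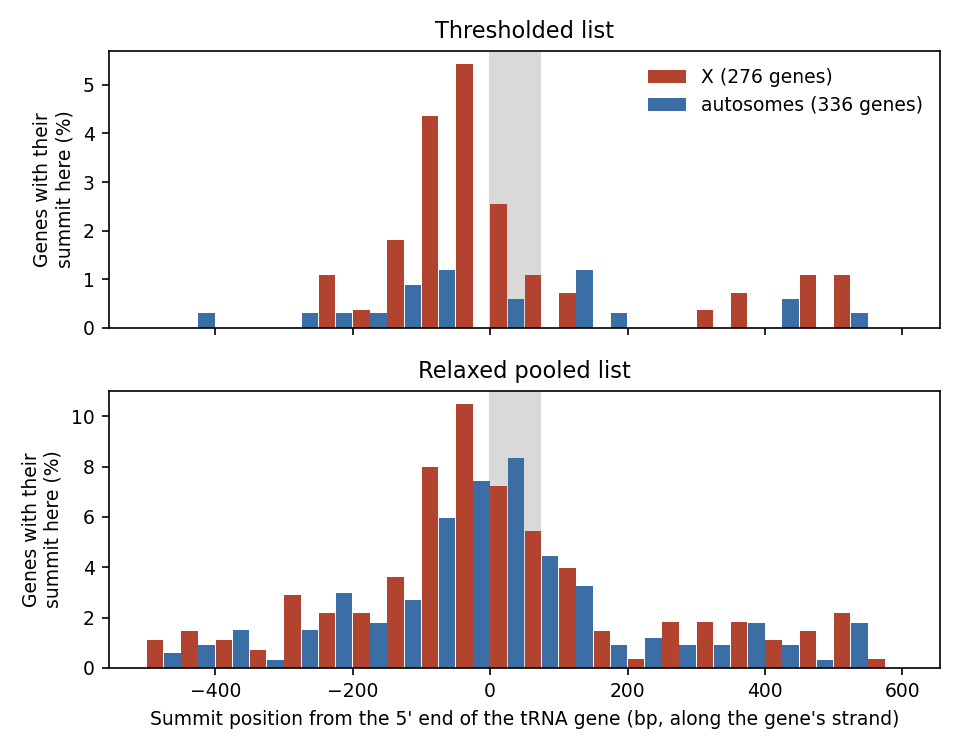
Position of the strongest summit within 500 bp of each tRNA gene, in bp from the 5′ end along the gene's strand, in bins of 50 bp. Bars give the percent of all X or autosomal tRNA genes with their summit in the bin, the grey band is a gene of 72 bp, the upper panel is the thresholded list and the lower panel the relaxed pooled list. X genes of the thresholded list peak just upstream of the gene, with a median of -28 bp, and in the relaxed list both sets peak around the gene.

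Summits inside the annotated gene numbered 11. The strongest was at F42A10.t1, a Ser gene on III, with a signal of 95.9, followed by K02A4.t1 (88.9), ZK678.t1 (84.2), C42D8.t1 (83.1), F09B9.t1 (78.8), C48C5.t2 (75.1), T07H6.t2 (72.1), T10B10.t1 (70.6), K01A12.t4 (69.7) and F32B4.t1 (66.4). All of these lie below the median of the list, 110, in a list that runs from 65.9 to 5643. Signals are those of the authors' peak caller, and they are compared within a list and not between lists. Of these 10 genes 8 lie on X, 1 on III and 1 on I.

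At the 500 bp limit, the last genes inside it were F11A1.t1, a Glu gene on X with its summit 464 bp outside the gene and a signal of 131, and Y105C5B.t4, an Asp gene on IV with 456 bp and 203. The first outside was C17D12.t3 on I, 523 bp away with a signal of 279.

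Grouping of the genes made a smaller difference than the chromosome. Isolated genes had a summit in 40 of 376 (10.6%, interval 7.91% to 14.2%). Clustered genes, with another tRNA gene within 1000 bp, had one in 38 of 236 (16.1%, interval 12.0% to 21.3%). On X the shares were 18.4% (26 of 141) and 23.0% (31 of 135), and on the autosomes 5.96% (14 of 235) and 6.93% (7 of 101). All 3 pairs of intervals overlapped, and a clustered gene can be reached by the summit of its neighbour.

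Neighbouring genes were then divided by orientation. On X 10 of 25 divergent pairs had a summit within 500 bp of either gene (40.0%, interval 23.4% to 59.3%), against 6 of 17 convergent (35.3%) and 7 of 39 tandem pairs (17.9%, interval 8.98% to 32.7%). On the autosomes it was 2 of 26 divergent (7.69%, interval 2.14% to 24.1%), 0 of 11 convergent and 2 of 18 tandem pairs. Neighbouring pairs can share a gene and a summit, so the pairs are not independent. The summit of the K01A12 group counted in convergent, tandem and divergent X pairs. A summit between the 2 genes was found in 4 divergent X pairs, those printed above, in 1 tandem pair on X and 1 on the autosomes, and in no convergent pair. The median gap was 161 bp in divergent X pairs and 163 bp in divergent autosomal pairs.

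The 4 pairs are C53C7.t2 and C53C7.t1, both Ser genes, with a signal of 210, M02F4.t2 and M02F4.t1, for Glu and Gly, with 179, F46G11.t2 and F46G11.t1, both Pro, with 173, and R03E1.t2 and R03E1.t1, for Asp and Ser, with 103. Their summits lay 4.5, 10.5, -18.0 and -13.0 bp from the middle of the gap. The signals in replicates 1 and 2 were 108 and 101 at the C53C7 pair, 81.8 and 102 at M02F4, 67.9 and 103 at F46G11, and 66.6 and 41.3 at R03E1. All 4 pairs thus had a peak in both replicates, but they were chosen from a list made from both, so this is a description. Of all 612 tRNA genes, 256 had a peak in both relaxed lists. The C53C7 pair lies 28014 bp from ceh-28, the gene in the transgene, and is the tRNA locus nearest to it. The extent of the transgene is not stated in the labels.

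**Figure D3:**
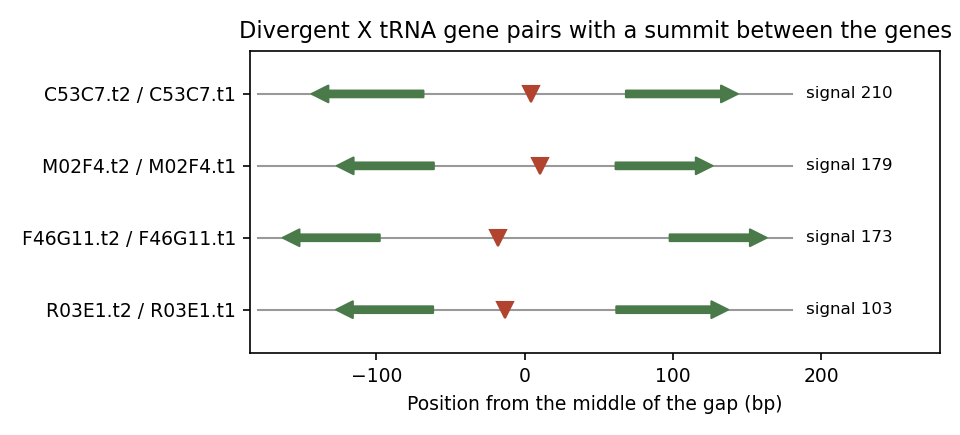
The 4 divergent tRNA gene pairs of X with a summit between the genes, drawn to scale in bp from the middle of the gap. Green arrows are the genes with their direction of transcription, red triangles the summits, and the peak signal stands at the right. All 4 summits lie within 18.0 bp of the middle.

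There were 100 groups of tRNA genes linked by gaps of up to 1000 bp, 54 of them on X, and 22 had a summit, 18 of these on X. The largest had 6 genes each. F22F1.t2 to F22F1.t7 on X carry Ser, Asp, Ser, Asp, Met and Ile, and 2 of these genes had a summit, while all 6 had one in the relaxed pooled list. The 6 His genes of F28H6 on X had none, nor any in the relaxed list. Of the groups with 5 genes, the Arg and Cys genes of K01A12 in an intron of K01A12.3 all lay within 500 bp of 1 summit with a signal of 69.7. The 5 Gln genes of H08J11 had no thresholded summit and all 5 had a relaxed one.

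The strongest peak of the whole list stood next to an Arg gene on X. C18A11.t2 (chrX:8036685-8036757, minus strand) had a summit at 8036435 with a signal of 5643, and 3107 and 2568 in replicates 1 and 2, rank 1 in each list. It lay downstream, 250 bp outside the gene, and 9 other genes of identical sequence, all on X, include 4 with a summit. The next on X were C28G1.t1, a Glu gene, with 398 (201 and 199 in the replicates, summit at -105 bp), and R04A9.t1, the Gln gene printed above, with 366 (181 and 182, -168 bp, in an intron of ZK1193.2). ZK154.t4, a Gly gene, followed with 345 (144 and 199), its summit downstream at 515 bp from the 5′ end. The summits of the last 3 also lay in a protein-coding promoter window.

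The strongest autosomal locus was Y69A2AR.t2, a Glu gene on IV that overlaps an exon of mdf-2, a spindle checkpoint gene. Its signal was 486, with 322 and 170 in the replicates, and its summit lay 69 bp upstream, beside the AATCGAT copies printed above. The strongest on II was Y38E10A.t1, an Ala gene, with 245 and the summit downstream. Y105C5B.t4 on IV had 203. The strongest on V was Y39B6A.t9 for Phe with 153, on I T23H4.t1 for Glu with 131, and on III F42A10.t1 with its neighbour F42A10.t2, both Ser, with 95.9.

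Further genes among the 20 of highest signal lay on X. C33G3.t2 for Lys had 187, with 106 and 77.1 in the replicates and the summit at -28 bp. R11.t1 for Tyr had 176, with 80.1 and 95.2 and the summit at -19 bp. ZK154.t2 and ZK154.t5, Asn genes in an intron of deg-1, an ion channel subunit gene, shared a summit of 169. F41D9.t3 for Asn, in an intron of sulp-3, a sulfate transporter family gene, had 158.

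Most signals were in the lower part of the list. The 65 summits had a median signal of 88.9, with quartiles of 77.1 and 150, against 110, 81.4 and 186 for the other 3466. With the whole list divided into 4 equal parts by signal, they numbered 22, 21, 12 and 10 from the lowest part to the highest. On X the median was 87.1 against 107 for the other X summits, and on the autosomes 97.6 against 110, where the interval of the 19 autosomal summits, 75.9 to 153, includes 110.

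Both replicates were read for each gene. Of the 78 genes 77 had a relaxed peak within 500 bp in both replicates, against 256 of all 612 tRNA genes. Among the 78, M01E5.t1 on I had none in replicate 1. Across the 77 genes Spearman's rho between the replicate signals was 0.62, as a description, since genes share peaks and the list was made from both replicates. The summits of the replicates lay a median of 22 bp apart, and 67 of the 77 were within 100 bp. Among the strongest 3531 peaks of each replicate, 53 of the 78 genes had a summit in replicate 1, 67 in replicate 2, 45 in both and 3 in neither.

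The X share was lower in replicate 1. In its strongest 3531 peaks 59 of 612 tRNA genes had a summit (9.64%, against 8.25% of all nuclear genes and 3.52% of tiles), 36 on X (13.0%, interval 9.57% to 17.5%) and 23 on the autosomes (6.85%, interval 4.60% to 10.1%), and these intervals overlapped. Its tiles had one in 2.99% on X and 3.63% on the autosomes. In replicate 2 it was 77 (12.6%, against 8.27%), 55 on X (19.9%) and 22 on the autosomes (6.55%), with intervals that did not overlap, against 3.41% and 3.58% of tiles. The median rank of the X genes with a thresholded summit was 2827 in replicate 1 and 2247 in replicate 2, and of the autosomal ones 1892 and 1930. All nuclear genes include the piRNA genes here, and a share without them was not counted for these lists. Read depth is unknown for both replicates.

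**Figure D4:**
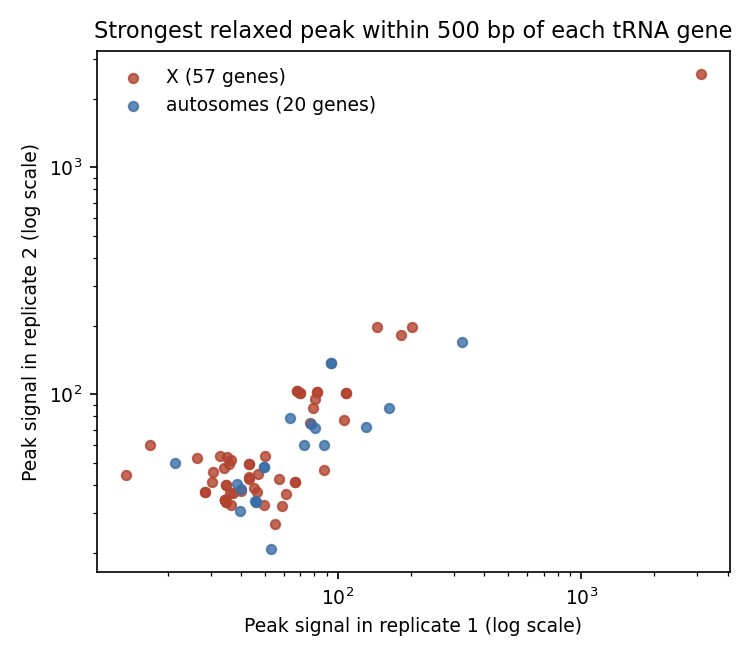
Signal of the strongest relaxed peak within 500 bp in replicate 1 and replicate 2, both on log scales, for the 77 tRNA genes with a thresholded summit and a peak in both. Each point is a gene, genes that share a peak fall on the same point, and C18A11.t2 stands alone at the upper right with 3107 and 2568. Spearman's rho is 0.62.

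Below the threshold, tRNA genes on all chromosomes had peaks. The relaxed lists hold 30000 peaks each, whatever the data. In the pooled one 342 of 612 tRNA genes had a summit (55.9%, interval 51.9% to 59.8%), against 41.0% of all nuclear genes and 26.3% of tiles. On X it was 173 of 276 (62.7%, interval 56.8% to 68.2%) and on the autosomes 169 of 336 (50.3%, interval 45.0% to 55.6%). By tiles it was 4624 of 16528 on X and 19970 of 77007 on the autosomes. The summits of both sets gathered at the gene. In the first 100 bp upstream lay 51 of the 173 on X (29.5%) and 45 of the 169 on the autosomes (26.6%), with medians of -12 and -4 bp. By rank, 57, 58, 39 and 19 of the X genes fell in ranks 1 to 3531, 3532 to 10000, 10001 to 20000 and 20001 to 30000, and 21, 59, 49 and 40 of the autosomal genes. These bands differ in width. Ranks 1 to 3531 held 32.9% of the X genes with a relaxed summit and 9.67% of all relaxed X peaks. On the autosomes they held 12.4% and 12.3%. Each gene counts here by its strongest peak, and a shared peak counts for each of its genes. The shares of peaks count single peaks, so the units differ. The relaxed lists of replicates 1 and 2 gave 320 genes (52.3%, against 42.7% of all nuclear genes) and 354 (57.8%, against 40.6%). Of the tRNA genes 256 were in both and 194 in neither. For the relaxed lists all nuclear genes include the piRNA genes, and a share without them was not counted.

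Of the 21 kinds of tRNA by amino acid, 18 had at least 1 gene with a summit, 17 of them on X and 13 on the autosomes. The highest share was for Cys with 5 of 13 (38.5%, interval 17.7% to 64.5%), of which 3 share the K01A12 summit. Ser had 10 of 39 (25.6%, interval 14.6% to 41.1%), 8 of them among 18 on X. Glu had 10 of 41 (24.4%, interval 13.8% to 39.3%), 7 of them among 23 on X. Gly had 8 of 55, Arg 7 of 44, Leu 6 of 39, Asp 5 of 27, Lys 5 of 46 and Pro 4 of 42. Val had 1 of 31 (3.23%, interval 0.572% to 16.2%), Gln 1 of 27, His 1 of 20, and Phe 1 of 14. Met with 20 genes (upper bound 16.1%), Trp with 12 (24.2%) and selenocysteine with 1 had none. Most of these intervals overlap, and the order of the amino acids is not resolved at these numbers. The Trp genes include loci known for amber suppressor alleles, sup-5, sup-7, sup-21, sup-24, sup-28, sup-29 and sup-33, of which none had a thresholded summit.

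**Figure D5:**
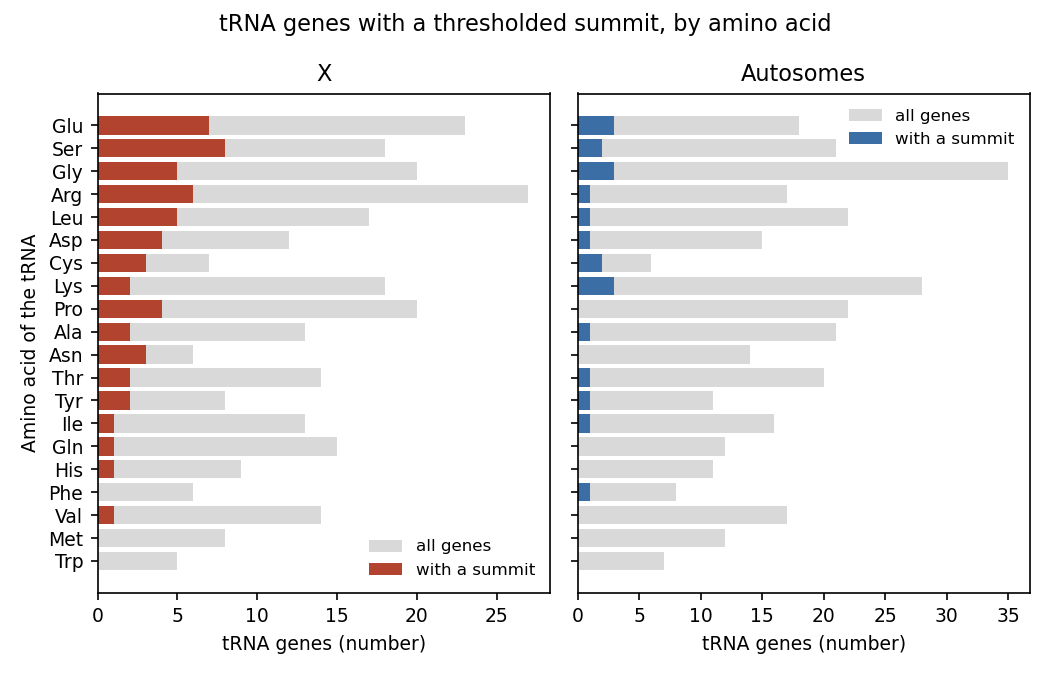
Number of tRNA genes by amino acid on X and on the autosomes, all genes in grey and those with a thresholded summit in colour. Selenocysteine, with 1 gene, and the 5 genes with no amino acid given are not drawn. Ser has 8 of 18 genes on X with a summit, and Met and Trp have none on either.

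Genes of identical sequence differed in whether they had a summit. The 612 genes have 200 distinct sequences, and 57 of these are shared by 469 genes. Of the shared sequences 31 had at least 1 copy with a summit and none had a summit at every copy. For 43 shared sequences found on X and on an autosome, 44 of 185 X copies had a summit (23.8%, interval 18.2% to 30.4%) and 14 of 223 autosomal copies (6.28%, interval 3.78% to 10.3%). The X share was the higher in 23 of them and the autosomal share in 3, and in 17 no copy had a summit.

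Single families show the range. A Gly sequence with 29 copies had a summit at 5 of 11 X copies and 0 of 18 autosomal ones, and an Asn sequence with 18 copies at 3 of 5 and 0 of 13. A Pro sequence with 24 copies had 3 of 13 on X and 0 of 11. A Glu sequence with 15 copies had 5 of 8 on X and 2 of 7 on the autosomes. The other way round, a Lys sequence with 25 copies had 1 of 10 on X and 3 of 15. These families were picked for description after their counts were seen.

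Copies of 1 gene can share reads, so the windows were checked for repeated sequence. Among genes whose window is at least 90% unique by 36-mers, 42 of 195 on X had a summit (21.5%, interval 16.3% to 27.8%) and 21 of 268 on the autosomes (7.84%, interval 5.18% to 11.7%). The median unique share of the window was 94.2% for genes with a summit and 94.9% for those without, and inside the gene itself the median was 0% in both. The authors' treatment of reads that align to several places is not stated in the labels or file records.

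The B box, to which TFIIIC binds, was searched as GTTCGANTC on the strand of the gene. Genes with a match had a summit in 46 of 286 (16.1%, interval 12.3% to 20.8%) and genes without in 32 of 326 (9.82%, interval 7.04% to 13.5%). On X the shares were 35 of 130 (26.9%) and 22 of 146 (15.1%), and on the autosomes 7.05% (11 of 156) and 5.56% (10 of 180). The intervals overlapped in each comparison. With at most 1 mismatch allowed, 542 genes had a match and 73 of them had a summit (13.5%).

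At the summits, the letters common elsewhere were rarer on X. AATCGAT or AATCAAT, on either strand within 50 bp of the summit, stood at 5 of 46 X summits near tRNA genes (10.9%, interval 4.73% to 23.0%) and at 157 of 504 other X summits (31.2%, interval 27.3% to 35.3%). Around the tRNA summits on X, equally long windows 500 bp away on each side held them in 6.52%, and in all 101 bp windows of X 4.94%. On the autosomes the same letters stood at 9 of 19 (47.4%, interval 27.3% to 68.3%), close to 50.7% of the other autosomal summits, against 6.65% of autosomal windows. The 5 X summits with these letters include those of C18A11.t2 and the R03E1 pair, whose sequences are printed above.

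CTGCGTC stood at 5 of 46 X summits near tRNA genes (10.9%, interval 4.73% to 23.0%) and 0 of 19 autosomal ones, against 7.54% and 8.74% of the other summits on X and the autosomes. All 101 bp windows of X hold it in 0.532%. GCGCAGGG stood at 2 of the 46, those of C18A11.t2 and F38G1.t2, against 2.78% of the other X summits and 0.0388% of X windows. TTAAGTG and TCAAGTG, cores of NK-2 class binding sites, stood at 1 and 0 of the 65 summits. At the other summits they stood in 0.490% and 0.808%, so these counts are near those of the rest of the list. Windows 500 bp away from those other summits held them in 0.678% and 1.14%. Such windows beside the summits near tRNA genes held them in 2 and 5 of 130.

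Upstream of the genes the letters were then compared between genes with and without a summit. CTGCGTC stood in the 200 bp upstream of 8 of 57 X genes with a summit (14.0%, interval 7.29% to 25.3%). It stood upstream of 5 of 219 without (2.28%, interval 0.979% to 5.23%), against 1.08% of all 200 bp windows of X. The 8 genes held 7 distinct copies, 1 of them upstream of 2 genes. Of these 7 copies, 3 lay within 50 bp of the summit. On the autosomes CTGCGTC stood upstream of 3 of 21 with a summit (14.3%, interval 4.98% to 34.6%) and 23 of 315 without (7.30%, interval 4.91% to 10.7%). These 2 autosomal intervals overlapped. AATCGAT or AATCAAT stood upstream of 6 of 21 autosomal genes with a summit (28.6%) and 29 of 315 without (9.21%), with intervals that did not overlap. On X these letters stood upstream of 15.8% of genes with a summit and 9.59% of those without, with overlapping intervals. A scan of all 8192 pairs of complementary 7-mers then put AGAGAAG first for the difference in share on X. It stood upstream of 17 of 57 genes with a summit (29.8%, interval 19.5% to 42.7%) and 11 of 219 without (5.02%, interval 2.83% to 8.77%), against 3.62% of X windows. As the largest of 8192 differences on the same genes, this is a description. Several 7-mers of the scan overlap each other, the second of them standing upstream of 26.3% and 9.13%.

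The 17 genes with AGAGAAG carry 8 different amino acids and include both divergent pairs C53C7 and F46G11. They held 20 distinct copies, of which 2 lay upstream of both genes of a divergent pair. Of the other 18 copies, 14 were on the strand opposite to the gene, and 13 of the 20 lay within 50 bp of the summit. Within 50 bp of the summit, AGAGAAG stood at 12 of 46 X summits near tRNA genes (26.1%, interval 15.6% to 40.3%) and 29 of 504 other X summits (5.75%, interval 4.04% to 8.14%), and at 0 of the 19 autosomal summits near tRNA genes. Since AGAGAAG was picked upstream of these same X genes, this restates the choice and is no second comparison. On the autosomes it stood upstream of 1 of 21 genes with a summit, C37A2.t1, and 26 of 315 without (8.25%). Of all 200 bp autosomal windows 3.71% held it. Of the 57 X genes 22 had AGAGAAG or CTGCGTC upstream and 3 had both.

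Base composition upstream differed between genes with and without a summit. The 100 bp upstream had a median of 43.0% G and C in X genes with a summit and 38.0% in those without, with quartiles of 38.0% to 49.0% and 33.0% to 43.5%. On the autosomes both medians were 44.0%. In the 200 bp upstream, the window of the letter counts, the medians were 40.5% and 36.5% on X and 44.5% and 40.5% on the autosomes, so there the gap was of the same size. The part of base composition in the counts of letters was not tested.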

How the data were processed

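The lists are those of a chromatin immunoprecipitation against tagged CEH-28 from whole L3 larvae, with 2 biological replicates of 1 group, taken from the labels. Per the deposited file records, a relaxed list was made from each replicate with a control, another from both replicates pooled, and the thresholded list from these by the irreproducible discovery rate. For each peak the authors deposited a signal value, and beside it a −log10 q-value. The signal ranked peaks within a list, and the −log10 q-value was not used. The programs used for alignment and peak calling were not given in the sources used here. Depth is unknown, and intervals cover counting error of genes or summits only, which are not independent replicates.

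From these lists, summits on ce11 were matched to tRNA genes of Ensembl release 115, with amino acids from RefSeq. A gene had a summit if 1 lay inside it or within 500 bp of either end. Shares have 95% Wilson intervals, and no test over samples was possible with 1 group. Tiles of 1072 bp and all nuclear genes served as background. Letters were searched on both strands, without the overlap of motifs removed. Uniqueness was counted over 36-mers of the whole genome. The members, lists and motifs were chosen with earlier results of these data known, and AGAGAAG after the 7-mers were scanned. Genes named were the 20 of highest signal, the strongest on each chromosome, up to 10 with a summit inside the gene, the 3 largest groups (and a second of 5 genes, tied in size), and 2 on either side of the 500 bp limit. A locus that these rules name is not reported here. Other genes named were chosen after their values were seen. Counting was checked on simulated data with Python 3.11.15, numpy 2.4.6, scipy 1.17.1 and matplotlib 3.10.9.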

Additional observations from a re-analysis of the deposited data

How the results depend on the processing

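X tRNA genes had the higher share in all 8 settings, with intervals apart from the autosomal ones in 6. The intervals overlapped without replicate 2 (13.0% against 6.85%) and among peaks above the median signal (6.16% against 2.98%). Clustered genes had a higher share than isolated ones in all 9 settings run for them, including cluster distances of 500 bp (19.4% against 10.2%) and 5000 bp (14.2% against 11.1%). Their intervals were apart at a cluster distance of 500 bp and with 1000 bp on either side (22.5% against 10.9%). They overlapped in the other 7. These shares were pooled over chromosomes. At the cluster distance of 1000 bp, X held 135 of 236 clustered genes and 141 of 376 isolated ones, and X had the higher share. With 1000 bp on either side, the windows of clustered genes overlap, so a summit can count for several of them. The part of either in these differences was not tested. Of 70 alternative values 46 stayed within the counting interval and 24 moved. This count is of all values under each setting, including those below. The direction of several moves was fixed by the setting. Keeping only peaks above the median signal can only lower a share of genes, and it raises the median signal. A narrower window cannot raise a share of genes, and a wider one cannot lower it. Signals of a single replicate are on their own scale. The count of moves is therefore no measure of robustness.

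With 200 bp on either side, the share was 9.80% over all tRNA genes, 10.2% in clustered genes and 11.9% in genes with a B box match. It was 43.0% in the relaxed pooled list. With 1000 bp it was 22.5% in clustered genes and 65.2% in the relaxed list. With the peak interval overlapping the gene, it was 9.64% over all tRNA genes, 10.6% in clustered genes and 11.9% with a B box match. Among peaks above the median signal, it was 4.41% over all tRNA genes, 3.19% isolated, 6.36% clustered, 6.16% on X, 2.98% on the autosomes and 5.59% with a B box match. Shares of all nuclear genes and of tiles were not counted for these windows, for the peak interval or for peaks above the median signal. Whether tRNA genes moved more than other genes is thus not known. Among peaks above the median signal, the median signal near tRNA genes was 178, against 186 for all such peaks. AATCGAT or AATCAAT stood at 36.4% of those summits. Leaving out 1 replicate gave 9.64% to 12.6% over all tRNA genes, 11.0% to 15.7% in clustered genes and 13.0% to 19.9% on X. It gave medians of signal of 49.0 to 56.9, on the scale of each replicate's own list, against 53.0 and 60.9 for its strong peaks. Promoter windows from 500 bp upstream to 100 bp downstream held 16.9% of the summits and those from 2000 bp upstream to 200 bp downstream 41.5%. The cause was not tested for any of these. The limit on unique windows for X and autosomes was added after the data were examined. No paired analysis was possible because there is 1 group and no test.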
